A study of Mus musculus with 12 samples.

Results

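Transcripts of the voltage-dependent anion channels (Vdac1, Vdac2 and Vdac3), cyclophilin D (Ppif) and the translocator protein (Tspo) were followed in mouse hearts that express a dominant-negative form of the mitochondrial calcium uniporter pore, DN-MCU. The members were taken by name, as every probe set annotated to exactly 1 of these 5 gene symbols. They are 5 of the 18194 genes named on the array, and 12 of its 45101 probe sets: 5 for Vdac1, 1 each for Vdac2 and Vdac3, 2 for Ppif and 3 for Tspo. All 12 passed the filter on dim probe sets.

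The hearts were whole, excised hearts of CD1 mice in 4 groups of 3 arrays, each labelled a biological replicate. DN-MCU adults and WT adults were male and 42 days old. DN-MCU neonates and WT neonates were 1 day old, with sex given as unknown, so age cannot be told apart from sex in any adult against neonate comparison. The WT mice were littermates, and the series title places the inhibition in the myocardium. The promoter that drives the transgene and the number of founder lines are not given in the sources used here. In whole hearts, fewer cells of a type and less transcript per cell cannot be told apart.

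The VDACs are beta-barrel channels of the outer mitochondrial membrane, and they pass ATP, ADP, metabolites and calcium to the space in front of the inner membrane, where the uniporter takes calcium into the matrix. Cyclophilin D is a prolyl isomerase of the matrix that lowers the calcium load needed to open the permeability transition pore, the channel behind much of the cell death of reperfused heart. TSPO is an outer membrane protein that binds cholesterol and drug ligands such as PK11195; earlier models placed VDAC and TSPO in the pore itself, while later gene deletions left pore opening in place. All values are log2 probe set signals as deposited, and a difference of 1 on this scale is a doubling.

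The uniporter signal separated the genotypes on 1 of its 2 probe sets. Mcu probe set 1442031_at had log2 values between 8.44 and 10.41 in the 6 DN-MCU arrays, against 2.45 to 4.55 in the 6 WT arrays, while 1453166_at ranged over 7.39 to 8.14 in DN-MCU and 7.41 to 8.18 in WT. The adult arrays scattered more than the neonatal ones: the median SD of a probe set was 0.400 in DN-MCU adults, 0.226 in WT adults, 0.141 in DN-MCU neonates and 0.132 in WT neonates. DN-MCU adult 3 stood apart from the other arrays on the second principal component, at 121.4 against a range of -50.89 to 24.42 for the other 11. The cardiomyocyte list was strongly expressed, with all 12 markers above the filter level of log2 3.35 and none called different between genotypes at either age.

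In adults, Tspo was the member that changed. Its 3 probe sets were 2.26, 2.31 and 2.72 times as high in DN-MCU hearts as in WT hearts, and they were the 3 of 12 member probe sets called at an adjusted p under 0.05 (limma, Benjamini-Hochberg over 24176 probe sets). Of all probe sets tested, 4.77% were called in this comparison, and 2.82% were called higher. The brighter Ppif probe set was lower in DN-MCU adults and Vdac2 and Vdac3 were slightly higher. In each of these cases the genotypes did not overlap, but none of the differences passed the test. On the second Ppif probe set the genotypes overlapped. In all, 6 of the 12 member probe sets separated the adult genotypes, as 17.2% of all probe sets did. In neonates none of the 12 was called and none separated the genotypes, where 0.0165% of all probe sets were called and 12.6% separated them. With limma, 4402 probe sets reached an unadjusted p under 0.05 in adults and 578 in neonates. The neonatal count lies below a share of 0.05 of the 24176 tests, which p-values would reach without any difference. Both ages were tested against the same estimate of the spread, although the adult arrays scattered more. The counts of the ages are therefore not on equal terms, and few neonatal calls do not show that neonates lack differences.

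**Figure D1:**
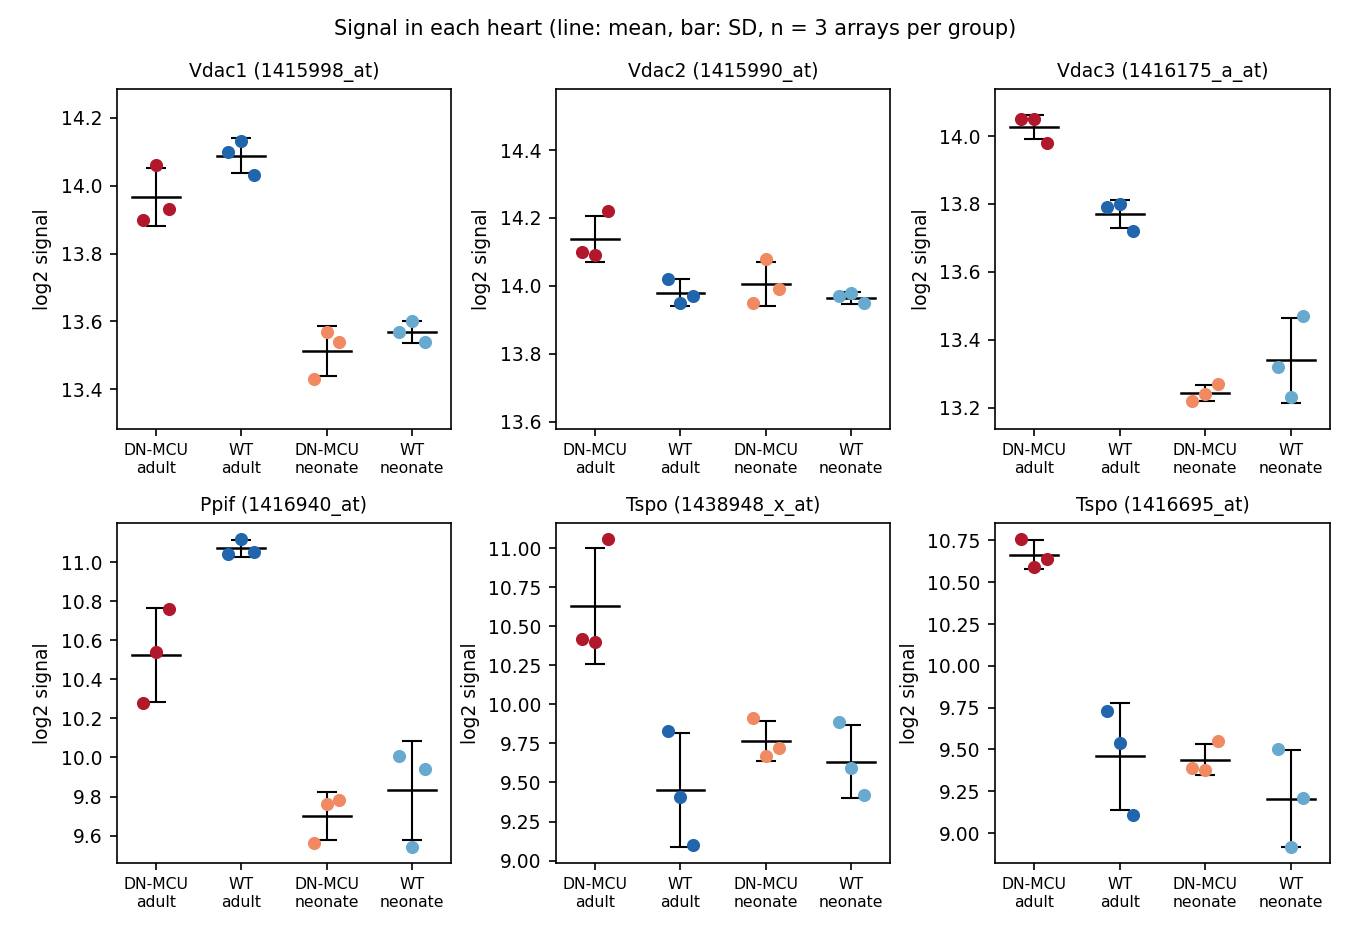
Log2 signal of each member's brightest probe set on all 12 arrays, and of a second Tspo probe set, with DN-MCU left of WT at each age; points are arrays, lines are means and bars are SD. Tspo lies above WT in all 3 DN-MCU adults, and Ppif and Vdac1 lie higher in adults than in neonates of both genotypes.

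The VDAC transcripts were among the brightest on the array, with 6 of their 7 probe sets between the 98.7th and 99.6th percentile of each array's values. Vdac1, the most abundant isoform in most mammalian tissues and a docking site for hexokinase, had its brightest probe set (1415998_at) at log2 13.9, 14.06 and 13.93 in DN-MCU adults, against 14.1, 14.13 and 14.03 in WT adults. In DN-MCU neonates it read 13.43, 13.57 and 13.54, against 13.57, 13.6 and 13.54 in WT neonates. The genotypes overlapped at both ages, while every adult value lay above every neonatal value. The difference, DN-MCU minus WT, was -0.12 in adults (SE 0.11, 95% interval -0.37 to 0.13, limma adjusted p = 0.636) and -0.06 in neonates (SE 0.11, adjusted p = 1.00). The other 3 bright Vdac1 probe sets differed by -0.02, 0.02 and -0.07 in adults. The fifth, 1437452_x_at, was dim at log2 3.71 to 4.26 and overlapped between the genotypes in adults.

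Of the members, the RefSeq promoter table (build GRCm38.p6) holds only Vdac1 and Ppif, and these 2 are shown for that reason. Vdac3, which was also higher in adults of both genotypes, is not in it. The 250 bases are those before 1 of the 2 listed Vdac1 starts (chr11:52360601-52360850, plus strand) and before the Ppif start (chr14:25693920-25694169, plus strand). Capitals mark matches to CCGGAAG (the core that ETS factors bind), GGGCGG (the GC box) or CCAAT on either strand.
Vdac1: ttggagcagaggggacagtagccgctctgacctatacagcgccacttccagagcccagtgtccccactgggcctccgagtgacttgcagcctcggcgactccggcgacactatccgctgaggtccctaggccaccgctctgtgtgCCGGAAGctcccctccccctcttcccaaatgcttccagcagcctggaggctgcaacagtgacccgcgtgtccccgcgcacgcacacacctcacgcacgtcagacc
Ppif: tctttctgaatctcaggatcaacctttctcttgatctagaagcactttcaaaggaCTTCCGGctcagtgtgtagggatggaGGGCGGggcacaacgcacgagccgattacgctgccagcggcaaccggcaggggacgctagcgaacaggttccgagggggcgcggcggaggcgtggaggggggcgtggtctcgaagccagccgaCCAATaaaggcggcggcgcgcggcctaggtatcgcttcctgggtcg
CCGGAAG was found once in each sequence, on the minus strand in Ppif, and in 6.91% of 32851 mouse promoter windows of this length. Ppif also held 1 GGGCGG and 1 CCAAT, which 32.7% and 33.8% of all windows hold. The window before the other Vdac1 start held no CCGGAAG. It held 3 GGGCGG and 1 AAGGTCA, a nuclear receptor half-site found in 4.08% of windows. The NRF1 site, CACGTG (the E-box), TGATGNAA (an ATF4-type element) and TATAAA were searched on both strands and matched none of the 3 windows; 3.74%, 6.02%, 3.45% and 12.4% of all windows hold them. The 2 Vdac1 windows were 65.2% and 68.4% G or C and the Ppif window 62.8%, against a median of 52.4% over all windows. The shares over all windows are not matched for this content. A match is a stretch of letters, with no binding measured here.

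Vdac2 restrains the death effector BAK at the outer membrane and has 1 probe set, 1415990_at. It read log2 14.1, 14.09 and 14.22 in DN-MCU adults, against 14.02, 13.95 and 13.97 in WT adults. All 3 DN-MCU adults lay above the highest WT adult. The difference was 0.16 (SE 0.11, 95% interval -0.08 to 0.40, limma adjusted p = 0.504). In neonates it was 0.04 (SE 0.11, adjusted p = 1.00), with values of 13.95, 14.08 and 13.99 in DN-MCU and 13.97, 13.98 and 13.95 in WT.

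Vdac3, an isoform needed for normal sperm motility in mice, was read by 1416175_a_at. Its values were 14.05, 14.05 and 13.98 in DN-MCU adults, against 13.79, 13.8 and 13.72 in WT adults. The groups did not overlap and each was tight, but the difference of 0.26 did not pass the test over all probe sets (SE 0.11, 95% interval 0.01 to 0.51, limma adjusted p = 0.262). In neonates the values were 13.22, 13.24 and 13.27 in DN-MCU, against 13.32, 13.23 and 13.47 in WT, a difference of -0.10 (SE 0.11, adjusted p = 1.00). The adult effect minus the neonatal effect was 0.35 (SE 0.16, limma adjusted p = 0.548).

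Since the isoforms come from the same arrays, their differences within an array were also compared, a measure added after the values were seen. Vdac3 minus Vdac1 was 0.14, -0.02 and 0.05 in DN-MCU adults, against -0.32, -0.33 and -0.31 in WT adults. Vdac2 minus Vdac1 was 0.2, 0.03 and 0.29 in DN-MCU adults, against -0.08, -0.18 and -0.06 in WT adults. Both measures separated the adult genotypes, by 0.38 and 0.28, while Vdac3 minus Vdac2 overlapped in adults (exact permutation p = 0.2). Vdac2 minus Vdac1 also separated the neonatal genotypes, at 0.52, 0.51 and 0.45 in DN-MCU neonates, against 0.39, 0.38 and 0.41 in WT neonates, a difference of 0.10. The other 2 neonatal measures overlapped. The exact two-sided permutation test gave p = 0.1 for each of the 3 that separated, and 0.2 after Benjamini-Hochberg adjustment over the 6 comparisons made. A p of 0.1 is the smallest that 3 against 3 arrays allow, so this test could not reach 0.05 for any measure and decides nothing here. Probe sets differ in affinity, so the differences do not say which isoform is the more abundant.

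Ppif was lower in DN-MCU adults without passing the test. Its brighter probe set, 1416940_at, read log2 10.28, 10.54 and 10.76 in DN-MCU adults, against 11.04, 11.12 and 11.05 in WT adults. The WT adults were nearly alike, and the DN-MCU adults spread out below all of them. The difference was -0.55 (SE 0.17, 95% interval -0.91 to -0.18, limma adjusted p = 0.102). DN-MCU adult 3 was the highest of the DN-MCU adults, and without that array the difference was -0.66 and was called (limma adjusted p = 0.0317). The second probe set, 1438955_x_at, read 9.64, 9.8 and 10.23 in DN-MCU adults, against 10.43, 10.06 and 9.87 in WT adults. Here the genotypes overlapped, and the difference was -0.23 (SE 0.20, adjusted p = 0.600).

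In neonates, 1416940_at read 9.56, 9.76 and 9.78 in DN-MCU hearts, against 10.01, 9.54 and 9.94 in WT hearts. The groups overlapped, with a difference of -0.13 (SE 0.17, limma adjusted p = 1.00). The adult effect minus the neonatal effect was -0.41 (SE 0.24, adjusted p = 0.689).

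Tspo rose in DN-MCU adults on each of its 3 probe sets. Probe set 1416695_at, which is not of the cross-matching type, read log2 10.76, 10.59 and 10.64 in DN-MCU adults, against 9.73, 9.54 and 9.11 in WT adults. The lowest DN-MCU adult lay well above the highest WT adult. The difference was 1.21 (SE 0.19, limma adjusted p = 0.00481), a 2.31-fold higher signal with a 95% interval of 1.72 to 3.09.

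The brightest Tspo probe set, 1438948_x_at, read 10.42, 10.4 and 11.06 in DN-MCU adults, against 9.83, 9.41 and 9.1 in WT adults. The third, 1456251_x_at, read 8.96, 8.75 and 9.51 in DN-MCU adults, against 8.18, 7.47 and 7.22 in WT adults. Neither overlapped between the genotypes, and on both DN-MCU adult 3 was the highest array. Their differences were 1.18 (SE 0.23, limma adjusted p = 0.0167) and 1.45 (SE 0.26, adjusted p = 0.00960).

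Over the alternative settings the Tspo difference ranged over 1.03 to 1.35 on 1416695_at, 0.96 to 1.37 on 1438948_x_at and 1.23 to 1.72 on 1456251_x_at. The adults were also fitted alone, which leaves fewer arrays to estimate the spread and drops the neonatal arrays, which scattered less. The SE then rose from 0.19, 0.23 and 0.26 to 0.21, 0.28 and 0.33 on 1416695_at, 1438948_x_at and 1456251_x_at. All 3 calls were lost in that fit, at limma adjusted p = 0.0989, 0.206 and 0.182 in this order. The replicate numbers of neonates were taken as pairs, which the labels do not state. Deviations of same-numbered neonatal arrays correlated at 0.13 to 0.28. With these numbers entered as a block (the neonatal block), the 3 probe sets remained called, at limma adjusted p = 0.0170, 0.0437 and 0.0363 in the same order. A replicate block within each age was also fitted, though the adult numbers were not taken as pairs. With it 1416695_at remained called (limma adjusted p = 0.0323) and 1438948_x_at and 1456251_x_at did not (adjusted p = 0.0910 and 0.0653). The call of 1438948_x_at was also lost without WT adult 2 (adjusted p = 0.0634) or without WT adult 3 (adjusted p = 0.0713). Replicate 1 of the adults carries sample names of another number series than replicates 2 and 3. Within replicate 1 the DN-MCU minus WT difference was 1.03, 0.59 and 0.77 for 1416695_at, 1438948_x_at and 1456251_x_at. Within replicates 2 and 3 it was 1.29, 1.47 and 1.78.

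In neonates the Tspo genotypes overlapped. Probe set 1416695_at read 9.39, 9.38 and 9.55 in DN-MCU neonates, against 9.5, 8.92 and 9.21 in WT neonates. The difference was 0.23 (SE 0.19, limma adjusted p = 1.00), and those of the other 2 probe sets were 0.13 and 0.16 (adjusted p = 1.00 each). The adult effect exceeded the neonatal one by 0.97, 1.05 and 1.29 on 1416695_at, 1438948_x_at and 1456251_x_at, and this difference between ages did not pass the test (limma adjusted p = 0.185, 0.272 and 0.201). None of the 12 member probe sets passed it, and 0.786% of all probe sets did. Averaged over both ages, 1 member probe set was called, where 1.84% of all were: Tspo 1416695_at, at 0.72 (SE 0.13, limma adjusted p = 0.0235). Under the neonatal block this call was lost (adjusted p = 0.0619).

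**Figure D2:**
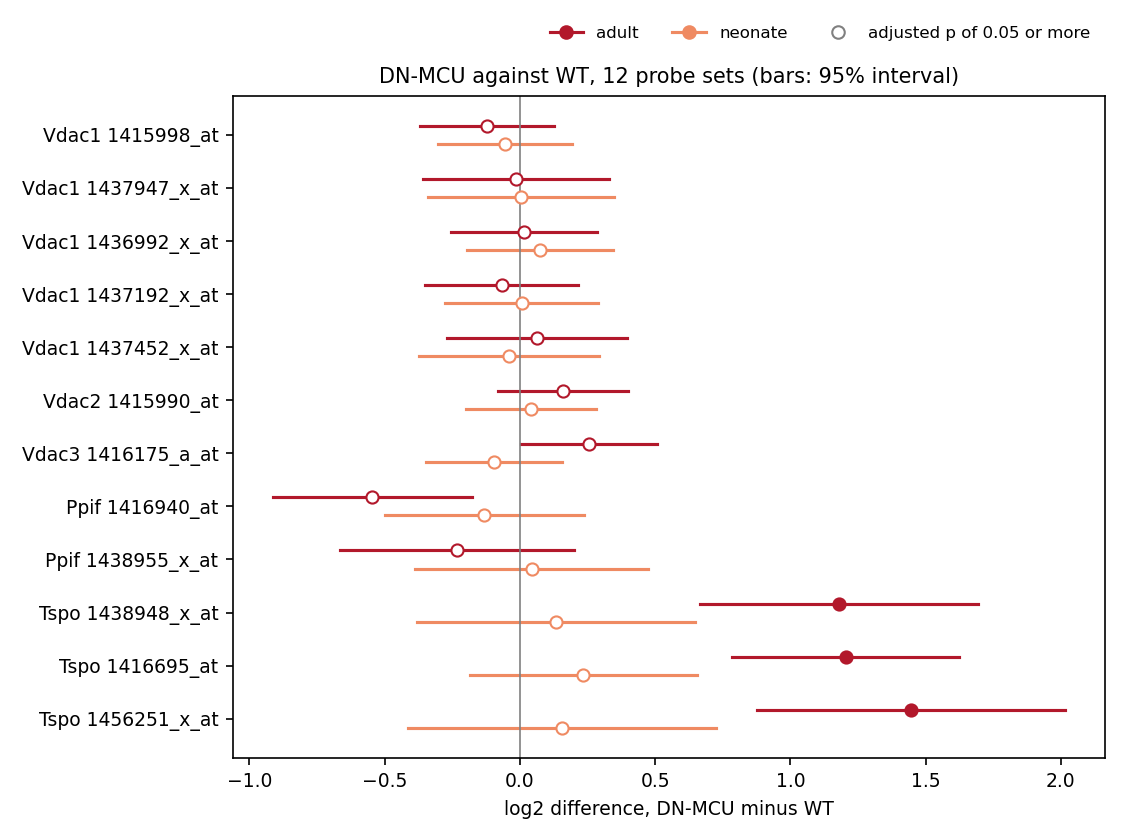
Log2 difference, DN-MCU minus WT, of the 12 member probe sets with 95% intervals from limma, in adults and in neonates; filled points have an adjusted p under 0.05. The 3 Tspo probe sets in adults, at 1.18, 1.21 and 1.45, are the filled points.

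TSPO is abundant in macrophages, steroid-producing cells, brown fat and endothelium, so markers of these cells were read on the same arrays. All 14 macrophage markers were above the filter level, and their summed linear signal ranged over 13033 to 16686 in DN-MCU adults and 14776 to 16732 in WT adults, with none of the 14 called. The 10 endothelial markers summed to 6740 to 7541 in DN-MCU adults and 8083 to 8609 in WT adults, again with none called. The macrophage ranges overlapped, and the endothelial sums were lower in all 3 DN-MCU adults. Their part in the Tspo difference was not tested.

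Of the 8 adrenal and steroidogenic markers, 7 were below the filter level, among them the steroidogenic Cyp11b1, Cyp11b2, Cyp21a1, Cyp17a1, Hsd3b1 and Nr5a1, at log2 1.71 to 3.07 over all arrays. The 8 summed to 56.8 to 79.4 in DN-MCU adults and 125 to 143 in WT adults. The 1 above the filter level was Dbh, a noradrenergic and not a steroidogenic enzyme, which was lower in DN-MCU adults (-1.65, limma adjusted p = 0.00242). Dbh made up most of the sum in WT adults, where it read log2 6.58, 6.78 and 6.52. It read 4.61, 4.93 and 5.4 in DN-MCU adults. Of the 10 adipocyte markers, 8 were on the array and 6 above the filter level. The sum of the 8 ranged over 7212 to 33261 in DN-MCU adults and 20357 to 30454 in WT adults, and most of it was Fabp4. In neonates, where Adipoq read at most log2 2.54, the sum was 27261 to 27940 in DN-MCU and 24507 to 26513 in WT. It therefore does not follow Adipoq across the ages. The lowest sum was that of DN-MCU adult 3, where Ucp1, the brown fat uncoupling protein, read log2 2.36. Ucp1 read 9.86 and 10.72 in the other DN-MCU adults, against 9.89, 7.11 and 7.77 in WT adults. Of the 6 adipocyte markers tested none was called: Adipoq (-0.39), Cidec (-0.47), Fabp4 (-0.71) and Ucp1 (-0.61) had negative differences, and Cidea (0.77) and Pck1 (0.67) positive ones. Cidea, which is also high in brown fat, read 11.49, 11.51 and 11.13 in DN-MCU adults, against 11.26, 10.23 and 10.34 in WT adults. In DN-MCU neonates Cidea read 10.02, 10.42 and 10.07, where Ucp1 read 2.13, 2.14 and 2.16, so neither Cidea nor the sum alone measures fat here. The part of fat in the Tspo difference was not tested. On DN-MCU adult 3 Tspo was the highest of all 12 arrays on 2 of its 3 probe sets. Without that array the Tspo differences were 1.22, 0.96 and 1.23 on 1416695_at, 1438948_x_at and 1456251_x_at, and each was still called (limma adjusted p = 0.00686, 0.0206 and 0.0144).

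With age, Vdac1, Vdac3 and Ppif were higher in both genotypes, Vdac2 was called in neither, and Tspo was higher in adults of the DN-MCU genotype. In DN-MCU hearts 8 of the 12 member probe sets were called higher in adults than in neonates, and in WT hearts 5 of the 12. Age moved much of the array: 46% of all probe sets were called in DN-MCU and 45.1% in WT, with 20.3% and 20.6% called higher. These comparisons use the same arrays as those between genotypes.

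Vdac1 probe set 1415998_at was higher in adults than in neonates by 0.45 in DN-MCU (SE 0.11, limma adjusted p = 0.00738) and by 0.52 in WT (SE 0.11, adjusted p = 0.00330). Of the other Vdac1 probe sets, 1436992_x_at and 1437192_x_at were called in both genotypes, at 0.42 and 0.53 in DN-MCU and 0.48 and 0.61 in WT, and 1437947_x_at and the dim 1437452_x_at in neither. With the DN-MCU arrays fitted alone all 3 Vdac1 calls in that genotype were lost, at adjusted p = 0.0607 for 1415998_at, 0.0912 for 1436992_x_at and 0.0513 for 1437192_x_at.

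Vdac3 was higher in adults by 0.78 in DN-MCU (SE 0.11, limma adjusted p = 0.000282) and by 0.43 in WT (SE 0.11, adjusted p = 0.0101). Vdac2 differed by 0.13 in DN-MCU (SE 0.11, adjusted p = 0.340) and 0.01 in WT (SE 0.11, adjusted p = 0.930). With each array's median subtracted, which lowered the median age difference of all probe sets by 0.15 in DN-MCU and 0.13 in WT, the Vdac2 differences turned to -0.017 and -0.12. The Vdac1 and Vdac3 calls of the brightest probe sets held under that scaling.

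Ppif showed the largest age difference of the members in WT hearts among the brightest probe sets. Probe set 1416940_at was 0.82 higher in DN-MCU adults than in DN-MCU neonates (SE 0.17, limma adjusted p = 0.00238), a 1.77-fold signal. It was 1.24 higher in WT adults than in WT neonates (SE 0.17, adjusted p = 0.000163), a 2.36-fold signal. The second probe set, 1438955_x_at, was not called in either genotype, at 0.10 in DN-MCU (adjusted p = 0.690) and 0.38 in WT (adjusted p = 0.141).

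Tspo was higher in DN-MCU adults than in DN-MCU neonates on all 3 probe sets, by 1.22 on 1416695_at (SE 0.19, limma adjusted p = 0.000447), 0.86 on 1438948_x_at (SE 0.23, adjusted p = 0.0116) and 0.99 on 1456251_x_at (SE 0.26, adjusted p = 0.00980). In WT hearts none of the 3 was called, at 0.25, -0.18 and -0.30 in the same order. The test of this difference between genotypes is the one between ages given above, which did not pass. The summed signal of the macrophage markers was higher in adults of both genotypes. It was 13033 to 16686 in DN-MCU adults against 2411 to 3341 in DN-MCU neonates, and 14776 to 16732 in WT adults against 3330 to 3865 in WT neonates. Bright markers such as Lyz2 and Csf1r weigh most in this sum, and not every marker rose. Cx3cr1 read 6.94, 6.48 and 6.99 in WT adults against 7.25, 7.34 and 7.33 in WT neonates, and overlapped between the ages in DN-MCU. The part of macrophages in the Tspo age difference was not tested.

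**Figure D3:**
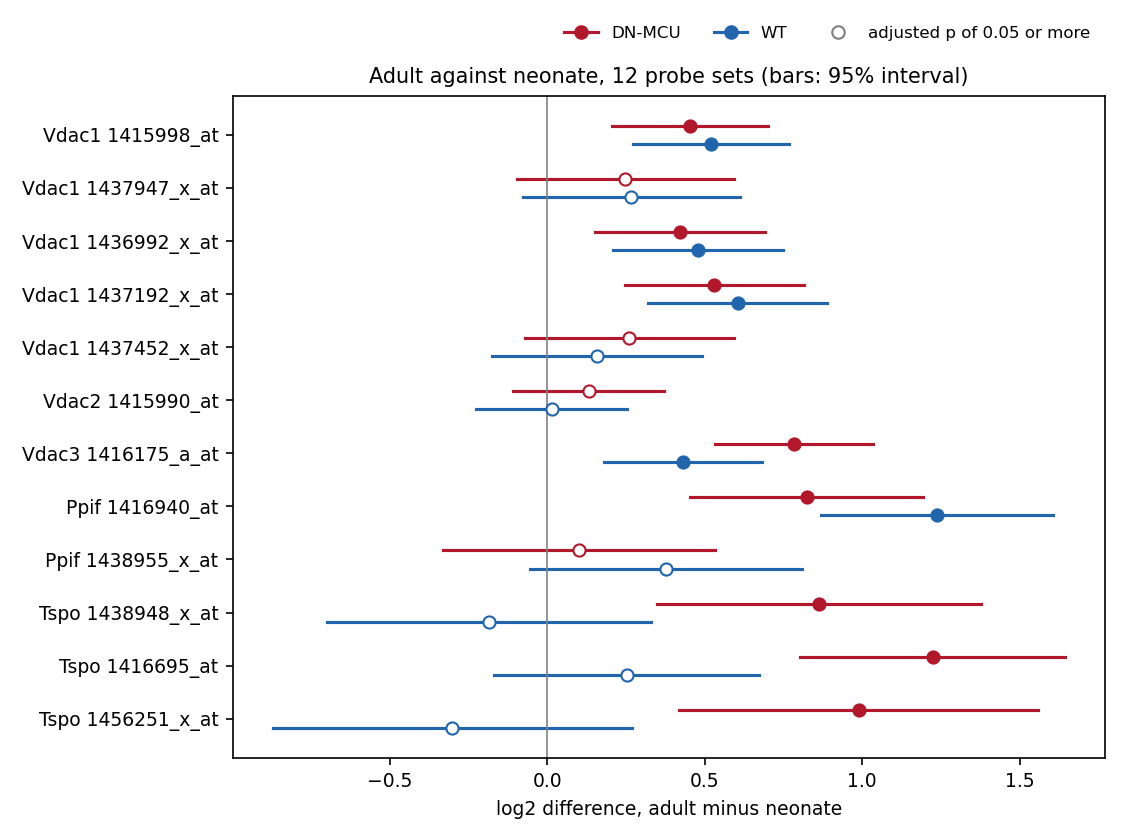
Log2 difference, adult minus neonate, of the 12 member probe sets in DN-MCU and WT hearts with 95% intervals from limma; filled points have an adjusted p under 0.05. Filled points number 8 in DN-MCU and 5 in WT, and the 3 Tspo points are filled in DN-MCU and open in WT, a difference that did not pass its own test.

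Among the genes placed beside these members in pore models, 3 of 18 measured were called higher in DN-MCU adults and none lower, each gene read by its brightest probe set. The median difference of the 18 was -0.07, beside 0 over all 11807 genes, of which 3.42% were called higher and 1.69% lower. The heart's main adenine nucleotide translocase Slc25a4, at -0.11 (limma adjusted p = 0.652), and the phosphate carrier Slc25a3, at -0.09 (adjusted p = 0.792), were not called. The 3 called were Slc25a5, the more widespread translocase (0.45, SE 0.11, limma adjusted p = 0.0449), Atpif1, the inhibitor of ATP synthase run in reverse (0.65, SE 0.14, adjusted p = 0.0245), and Bak1, the outer membrane death effector (1.41, SE 0.33, adjusted p = 0.0370). Under the neonatal block all 3 calls were lost, at adjusted p = 0.118, 0.0746 and 0.0894 in this order, and they were also lost with the adults fitted alone.

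Of the VDAC binding partners, 2 of 18 measured were called higher in DN-MCU adults and none lower, with a median of 0.17. Ckmt1, a creatine kinase of the intermembrane space that sits at VDAC contact sites and belongs to brain and epithelia more than to muscle, read log2 7.05, 6.79 and 7.71 in DN-MCU adults, against 3.07, 3 and 2.9 in WT adults, which lie below the filter level. In neonates it stayed below that level, at 3.01, 3.01 and 2.87 in DN-MCU and 2.77, 3.03 and 2.89 in WT. Set against the filter level, the mean of the DN-MCU adults was at least 14.2-fold higher, since the WT adults give only a bound. The fit called the difference (limma adjusted p = 3.32e-06), also with the adults alone (adjusted p = 0.00479). The muscle form Ckmt2, named here after its values were seen, was not called (-0.31, adjusted p = 0.511).

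The hexokinases that dock on VDAC had differences of opposite sign. Hk1 read 12.08, 11.75 and 12.57 in DN-MCU adults, against 11.31, 10.9 and 10.95 in WT adults, a difference of 1.08 (SE 0.22, limma adjusted p = 0.0195). Hk2, the insulin-responsive muscle isoform, read 11.6, 11.78 and 11.8 in DN-MCU adults, against 12.04, 12.28 and 12.37 in WT adults, and its difference of -0.50 did not pass (SE 0.16, adjusted p = 0.112). Both separated the adult genotypes. Hk1 remained called under the neonatal block (adjusted p = 0.0483) and not with the adults alone (adjusted p = 0.211). Hspa9, the mortalin chaperone that ties VDAC to the calcium channel of the endoplasmic reticulum, was not called at 0.38 (adjusted p = 0.539).

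**Figure D4:**
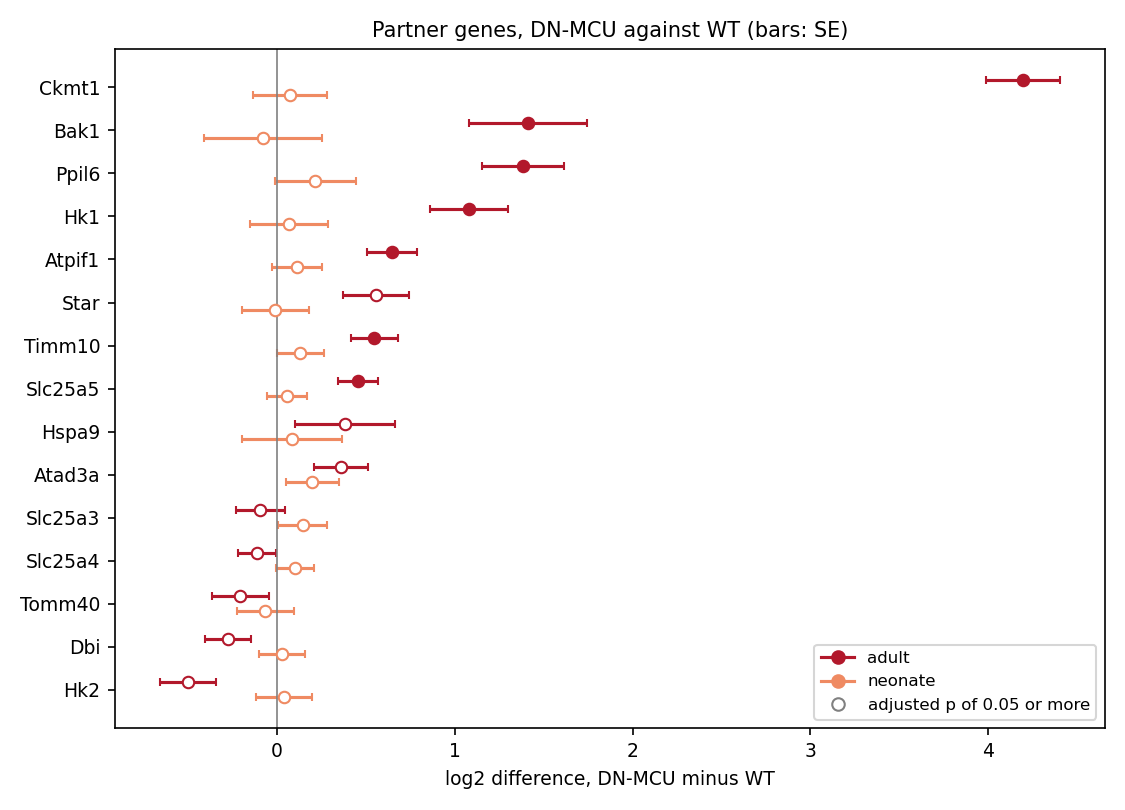
Log2 difference, DN-MCU minus WT, of 15 partner genes in adults and in neonates, with bars of 1 SE from limma; filled points have an adjusted p under 0.05. The adult Ckmt1 point is a fitted value against WT adults below the filter level and is no measured size, and no neonatal point is filled.

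Of the machinery that inserts beta-barrels such as VDAC, 1 of 16 measured genes was called in adults, Timm10, an intermembrane space chaperone, which was higher in DN-MCU (0.55, SE 0.13, limma adjusted p = 0.0430), and the median of the 16 was 0.10. It was not called under the neonatal block (adjusted p = 0.106) or with the adults alone (adjusted p = 0.325). The import pore Tomm40 differed by -0.21 (adjusted p = 0.567). Of 12 other cyclophilins measured, 1 was called in adults, Ppil6, higher by 1.38 (SE 0.23, limma adjusted p = 0.00626), where 3.42% of all genes were called higher, and the median of the 12 was 0.18. That call was lost with the adults fitted alone (adjusted p = 0.0932). Ppil1, named here after its values were seen, differed by -1.34 without passing (limma adjusted p = 0.0581). With each gene read by the mean of its kept probe sets, 2 of the 12 were called, 1 higher and 1 lower. None of the 8 measured TSPO ligands and partners was called in adults in the fit over all 12 arrays. Among them the acyl-CoA binding protein Dbi, an endogenous TSPO ligand, differed by -0.28 (adjusted p = 0.294), the cholesterol carrier Star by 0.56 (adjusted p = 0.136) with values of 3.79, 4.04 and 3.35 in DN-MCU against 3.11, 2.97 and 3.45 in WT, and Atad3a by 0.36 (adjusted p = 0.238). Star was called without DN-MCU adult 3 (0.74, limma adjusted p = 0.0170) and with array weights (0.73, limma adjusted p = 0.0272). In neonates none of the genes in these 5 lists was called, and 0.0254% of all genes were.

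Of the other cyclophilins, 5 of 12 were lower in adults than in neonates and none higher in each genotype, with a median of -1.02 in DN-MCU and -0.90 in WT, beside -0.17 and -0.16 over all genes. Among all genes, 46.7% were called by age in DN-MCU, with 29.1% called lower in adults, and 45% in WT, with 27.8% called lower. Ppib and Ppic are given as examples chosen after their values were seen. Ppib, the secretory pathway cyclophilin B, was lower by 0.69 in DN-MCU adults (limma adjusted p = 0.00515) and by 1.13 in WT adults (adjusted p = 0.000238). Ppic, cyclophilin C, was lower by 1.97 in DN-MCU (adjusted p = 0.000333) and 2.02 in WT (adjusted p = 0.000267).

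Of the 18 VDAC partners measured, 7 were called higher in adults and none lower in DN-MCU, and 5 higher and 2 lower in WT. Of all genes, 17.6% were called higher with age in DN-MCU and 17.2% in WT. Ckmt2 was higher in adults by 2.80 in DN-MCU and 3.53 in WT, and Hk2 by 2.26 in DN-MCU and 2.80 in WT (limma adjusted p of 3.69e-06, 6.92e-07, 1.77e-06 and 3.79e-07 in this order). Hk1 was lower by 0.62 in WT adults (limma adjusted p = 0.0395). In DN-MCU adults Hk1 was higher by 0.39, which was not called (limma adjusted p = 0.166). Slc25a5 was lower in adults in both genotypes, by 0.33 in DN-MCU (adjusted p = 0.0318) and 0.73 in WT (adjusted p = 0.000379), and Slc25a3 was higher, by 0.52 in DN-MCU (adjusted p = 0.0102) and 0.76 in WT (adjusted p = 0.00113). The TSPO ligand Dbi was lower by 1.07 in DN-MCU (adjusted p = 8.16e-05) and 0.76 in WT (adjusted p = 0.000755).

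The gene whose profile over the 12 arrays lay nearest to each member was found among the other 11806 genes by the root-mean-square difference of centred log2 values. Vdac1 lay nearest to Idh3g, at 0.0711, then ND5 and the sarcoplasmic reticulum pump Atp2a2. Ppif lay nearest to Shroom4, at 0.113, then the mitochondrial carrier Slc25a11, at 0.114, and Afg1l. Vdac3 lay nearest to the ferritin heavy chain Fth1, at 0.109, and Vdac2, whose own profile is nearly flat, to Cc2d1b, at 0.0449. Tspo lay nearest to Hax1, at 0.170, then Rnf185 and S100a13. These distances describe the profiles of 12 arrays that share the age split, and carry no test.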

How the data were processed

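Total RNA of 12 whole mouse hearts (500 ng each) was made into biotinylated cRNA for Affymetrix 3' arrays, as the labels' protocols state. The deposited values are log2 probe set signals, already summarised and set to a common scale by the authors; the submitters' processing notes name Partek, and the algorithm, its version and the genome build are not given in the sources used here. Precision is limited by 3 arrays per group.

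Gene names came from the platform annotation, where 34945 probe sets have 1 gene, 932 several and 9160 none; 34754 of the first matched RefSeq by gene ID. Probe sets were kept where the third highest of 12 values was above log2 3.35, the median of all values, after 64 control probe sets were removed, which left 24176. limma 3.58.1 in R 4.3.3 fitted 4 group means over all 12 arrays, with Benjamini-Hochberg adjustment over all kept probe sets and a threshold of 0.05. This fit gives a probe set the same spread in every group, although the adult arrays scattered more than the neonatal ones. For a gene with several probe sets, the kept one with the highest mean over all arrays represents it, and the text gives every member probe set, the genes of each partner list called between genotypes (where none was, those with the smallest p in adults), and Slc25a4, Slc25a5, Slc25a3, Hk1, Hk2, Hspa9, Tomm40 and Dbi in every case. Ppia, whose probe set matches several genes, was not analysed here. The fit was run on simulated data in which all groups had the same spread and no age difference. That run does not cover the unequal spread of the real groups. The members and lists were chosen with earlier results of these data known. Promoter sequences are from RefSeq.

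Groups share replicate numbers. Deviations of same-numbered arrays from their group means correlated at -0.38, 0.41 and -0.43 in adults, whose numbers were not taken as pairs, and at 0.13, 0.22 and 0.28 in neonates, whose numbers were; a fit with that block is given beside the member calls between genotypes and the partner calls in adults that it changes. No 2 arrays were identical. Whether the replicates came from separate litters is not stated, so p-values measure the spread between these hearts.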

Additional observations from a re-analysis of the deposited data

How the results depend on the processing

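The counts of probe sets called depended on the estimate of the spread. In adults, 1152 became 112 with the adults fitted alone, 2036 with array weights, 568 with the replicate block within each age, 636 with the neonatal replicate block and 3140 without DN-MCU adult 3 and WT adult 1 together, an alternative chosen after seeing the data like the neonatal block, and 619 to 2214 with 1 array left out (the fewest without WT adult 3, the most without DN-MCU adult 3). In neonates, 4 (3 higher, 1 lower) became 2 with quantile normalisation or the stricter filter, 1 (higher) with array medians subtracted, 1 with the neonates alone, the series block or both scattered adult arrays left out, 95 with array weights, 0 with either replicate block and 0 to 12 with 1 array left out. The difference between ages, 190, became 1216 with weights, 39 and 71 with the block within each age and in neonates, 1112 without both arrays and 70 to 636 with 1 left out. The mean effect, 444, became 1735, 143, 212, 1598 and 183 to 936 in the same order. The stricter filter left 6808 age calls in DN-MCU and 6650 in WT.

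Of the member probe sets, the 3 called in adults became 0 with the adults alone, 1 with the replicate block within each age and 1 without cross-matching probe sets, which leaves 1 Tspo probe set to test. The difference between ages, 0, became 2 with weights or without both scattered arrays. The mean effect, 1, became 2 with medians subtracted, 4 with weights, 3 without both arrays, 0 with either block and 0 to 3 with 1 array left out. Age calls became 5 of 8 in DN-MCU with that genotype alone, and 4 in DN-MCU and 3 of 5 in WT without cross-matching probe sets. The Vdac2 age difference in WT, 0.01, turned to -0.0075 with quantile normalisation, -0.0077 without both arrays and -0.12 with medians subtracted, which gave -0.017 in DN-MCU. With 1 array left out it ranged over -0.0077 (without WT adult 1) to 0.030. The Tspo age difference in WT was 0.25 without cross-matching probe sets. Ppif in adults was called with weights (-0.66, limma adjusted p = 0.0413) and without both arrays (-0.68, adjusted p = 0.0372). Other than where named, the cause was not tested. Fitting only the groups compared gives no separate value for the difference between ages or the mean effect. The brightest VDAC probe sets lie near the top of the signal range. Arrays can compress differences there, and whether they did so here was not tested.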
